A study of Drosophila melanogaster with 3 samples.

Results

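The data are a map of where the tagged protein CG3919-eGFP was found on chromatin at ush and cbt, a pair of neighbouring transcription regulator genes on chromosome arm 2L of Drosophila melanogaster. Members were chosen by position: every region whose summit lay inside the spans of ush and cbt, or within 5 kb of either. The locus itself was selected on the authors' peak signal, and holds a region that ranked 3 in every list. Ranks and counts at the locus are therefore given as a description with no test. On the dm6 build the interval ran from 471220 to 545560 of 2L, 74.3 kb in all. It held 22 of the 9569 reproducible peaks and 54 of the 30000 candidate regions of the pooled replicates. Of the 30000 candidate regions in each replicate list, 44 fell in it for replicate 1, 52 for replicate 2 and 49 for replicate 3.

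Chromatin immunoprecipitation and sequencing (ChIP-seq) was done on whole prepupae of mixed sex, the stage at which metamorphosis begins. There was 1 group of 3 biological replicates, all from 1 transgenic line that stably expresses CG3919 with GFP fused to its C terminus, and an antibody to GFP was used. The promoter that drives the fusion is not given in the sources used here, and 1 control file on dm6 was shared by all replicates, per the deposited provenance texts. No second condition exists, so every comparison is made along the genome, and in whole animals a region can reflect any tissue. A candidate region is an entry of a list that holds peaks and background together. A reproducible peak is an entry of the list that the authors thresholded after comparing ranks across replicates. All 9569 reproducible peaks were the strongest candidates of the pooled list. Being in that list therefore marks a high pooled rank, and does not mean that a peak was found in every replicate. Rank 1 is the region with the highest authors' signal in its list.

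ush encodes U-shaped, a zinc finger protein of the Friend of GATA family. It binds GATA transcription factors such as Pannier and Serpent and modulates what they do in bristle patterning of the notum, in blood cells and in the heart. cbt encodes Cabut, a zinc finger transcription factor related to the vertebrate TIEG proteins, with roles in dorsal closure, wing growth and the response to dietary sugar. cbt (FBgn0043364) spans 476446 to 479688 on the minus strand and lies wholly within a long intron of ush (FBgn0003963), which spans 476220 to 540560 on the plus strand. The 3 annotated cbt isoforms share 1 start site at 479688. The 5 ush isoforms use 4 start sites: 476220 for ush-RD and ush-RE, 490835 for ush-RB, 523466 for ush-RA and 523736 for ush-RC.

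The sequences at the summits that carry the description are shown first, taken from RefSeq (Release 6 assembly, which is dm6) and printed for the plus strand, 5′ to 3′. The 22 reproducible peaks are numbered 1 to 22 in the direction of ush transcription. Peaks 4 and 5 are the strongest at the locus, peak 18 lies before the ush-RA start, peak 22 is the strongest in the 3′ part of ush, and peaks 9 and 15 hold the same uncommon 8 letters. Each window is 201 bp with the summit in its centre. Capitals mark matches on either strand to any of 14 motifs, which are spelled out with their shares further on.
Peak 4 (chr2L:479957-480157): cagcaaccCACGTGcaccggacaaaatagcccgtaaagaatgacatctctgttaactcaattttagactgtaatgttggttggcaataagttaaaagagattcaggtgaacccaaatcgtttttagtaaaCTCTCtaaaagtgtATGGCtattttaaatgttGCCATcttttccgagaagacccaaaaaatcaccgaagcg
Peak 5 (chr2L:480956-481156): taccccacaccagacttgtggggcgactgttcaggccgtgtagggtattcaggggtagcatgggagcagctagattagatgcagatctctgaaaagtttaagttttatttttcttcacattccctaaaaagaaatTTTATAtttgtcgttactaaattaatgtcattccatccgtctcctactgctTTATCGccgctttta
Peak 9 (chr2L:488365-488565): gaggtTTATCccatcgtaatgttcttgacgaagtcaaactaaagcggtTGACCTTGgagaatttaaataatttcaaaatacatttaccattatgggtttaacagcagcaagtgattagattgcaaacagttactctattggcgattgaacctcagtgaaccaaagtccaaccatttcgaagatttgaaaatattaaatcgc
Peak 15 (chr2L:516106-516306): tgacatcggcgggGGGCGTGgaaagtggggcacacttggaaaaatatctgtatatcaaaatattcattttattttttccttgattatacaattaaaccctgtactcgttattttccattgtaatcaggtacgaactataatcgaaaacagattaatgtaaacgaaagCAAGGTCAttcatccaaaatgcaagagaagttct
Peak 18 (chr2L:522896-523096): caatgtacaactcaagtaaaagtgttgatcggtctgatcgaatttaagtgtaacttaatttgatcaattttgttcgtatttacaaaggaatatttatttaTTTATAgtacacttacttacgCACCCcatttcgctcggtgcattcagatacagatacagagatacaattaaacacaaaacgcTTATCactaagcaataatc
Peak 22 (chr2L:530348-530548): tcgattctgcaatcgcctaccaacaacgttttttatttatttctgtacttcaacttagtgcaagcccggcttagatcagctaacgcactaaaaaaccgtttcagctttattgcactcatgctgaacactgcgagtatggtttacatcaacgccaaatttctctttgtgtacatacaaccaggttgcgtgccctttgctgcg

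The windows of peaks 3 and 11 overlap annotated 5′ untranslated exons, so only a 30 bp stretch of each is shown. Capitals here mark only matches that lie wholly inside the stretch. For peak 3, inside cbt, it holds an E-box. For peak 11, at the ush-RB start, it holds the beginning of a run of GA repeats.
Peak 3 (chr2L:479182-479211): gcatgcggtgttCACGTGaaagcgtgttgg
Peak 11 (chr2L:490722-490751): CTCTCTCcCTCTCTCTCTCTCTCcctatct

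The reproducible peaks formed separate stretches rather than an even spread. Of the 22, 2 lay upstream of ush and 20 inside its span, of which 1 was also inside cbt. Of those 20 summits, 17 were intronic in every ush isoform that covers them and 3, those of peaks 10, 11 and 19, lay in a 5′ untranslated exon of some isoform. A 5′ stretch of 10 peaks covered 14.3 kb around and upstream of cbt, from a summit at 479131 to one at 493425, with ranks from 3 to 9563. A 3′ stretch of 10 peaks covered 19.7 kb around the ush-RA and ush-RC starts, from 510759 to 530448, with ranks from 1264 to 7621. Neighbouring summits were 199 to 17334 bp apart, with a median of 1929 bp. Per 10 kb the interval held 2.96 reproducible peaks, against 0.721 over all of 2L, and 7.26 pooled candidates against 2.26.

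**Figure D1:**
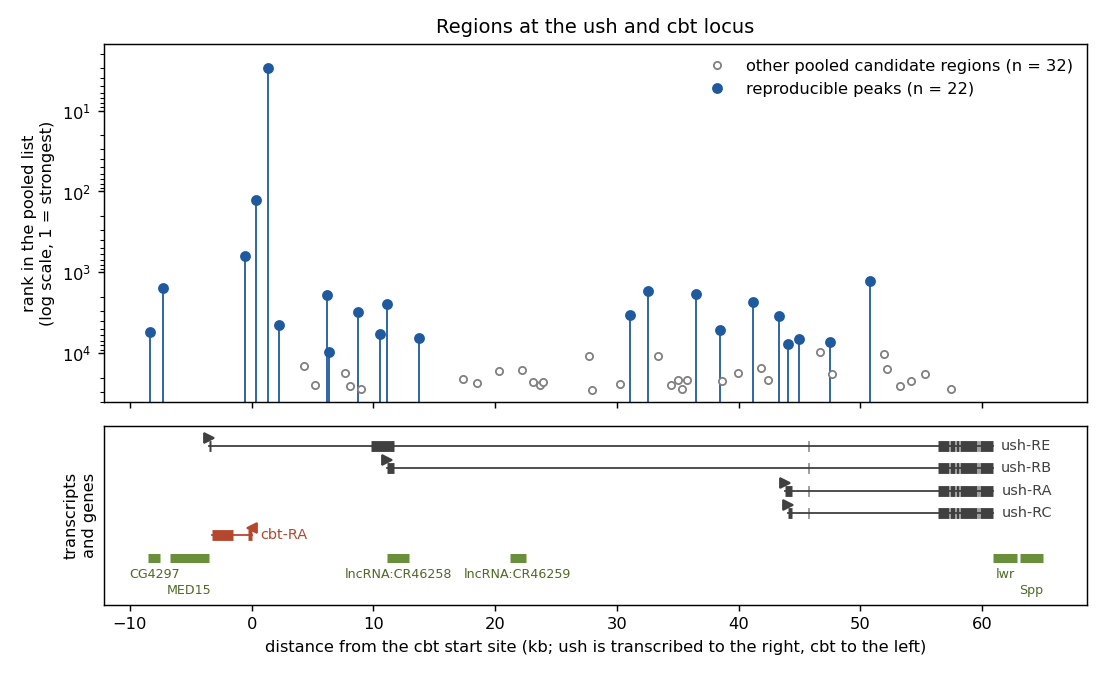
Rank in the pooled list (log scale, 1 is the strongest) of each region at the locus against distance from the cbt start site in kb, with reproducible peaks filled, other pooled candidates open, and transcripts and neighbouring genes below (ush-RD shares the start of ush-RE and is not drawn; arrowheads mark start sites). The 3 strongest peaks, ranked 3, 126 and 633, sit side by side at cbt, and no filled point lies in the 17334 bp between the stretches.

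The strongest signal was upstream of cbt. Peak 5 (480552 to 481367, summit 481056) ranked 3, 3 and 3 in replicates 1, 2 and 3. Its summit was 1368 bp upstream of the cbt start and 4836 bp downstream of the start of ush-RD and ush-RE, in a ush intron. It was 9779 bp upstream of ush-RB, 42410 bp upstream of ush-RA and 42680 bp upstream of ush-RC. The 3 replicate summits fell within 4 bp of each other, although the region was 412 bp wide in replicate 1, 809 bp in replicate 2 and 780 bp in replicate 3. At 816 bp in the reproducible list it was among the widest: 17 of the 9569 peaks, this one included, were as wide or wider. The median was 436 bp, a width that many entries of the list share exactly.

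Peak 4 (479822 to 480312, summit 480057) was the nearest to the cbt start, 369 bp upstream of it. It ranked 126 in the reproducible list and 134, 115 and 134 in the replicates, a mean of 127.7 ± 11.0 (SD, n = 3). Replicate summits lay 369 to 379 bp upstream of the start. Peak 3 (478983 to 479315, summit 479131) was 557 bp downstream of the start. There it falls in a 5′ untranslated exon in some cbt isoforms and in an intron in others. It ranked 633, and 938, 433 and 647 in the replicates, a mean of 673 ± 253 (SD, n = 3). Peak 6, 2254 bp upstream of cbt, was far weaker, at rank 4439 and replicate ranks 5854, 3761 and 5249. The order of these 4 peaks, 5 then 4 then 3 then 6, was the same in all 3 replicates, and the ranges of their replicate ranks did not overlap.

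**Figure D2:**
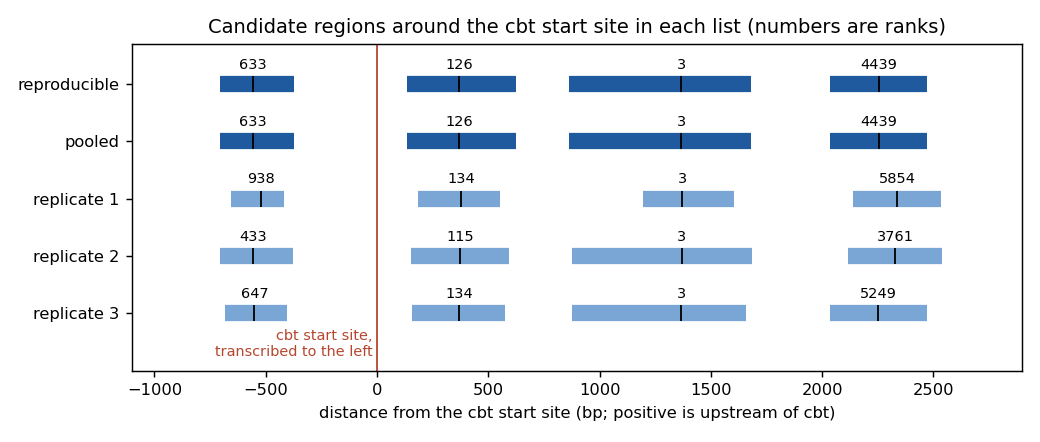
Position of each region (bar) and its summit (tick) relative to the cbt start site in bp, by list, with the rank printed above. The same 4 regions appear in each of the 5 lists, and the rank of the widest is 3 in all of them.

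The start sites of ush differed in what lay at them. At the start of the long isoforms ush-RD and ush-RE, just beyond the 3′ end of MED15, no list had a summit nearer than 2910 bp. The nearest reproducible summit was that of peak 3, 2911 bp away and inside cbt. At the ush-RB start, which the non-coding RNA gene lncRNA:CR46258 shares, peak 11 (490654 to 490883) had its summit 38 bp upstream. It ranked 2480, and 4644, 1160 and 2926 in the replicates, a mean of 2910 ± 1742 (SD, n = 3), so replicate 1 placed it 4.00 times lower than replicate 2. Peak 10, 601 bp upstream of the same start, ranked 5797, and 1980 in replicate 1 and 5422 in replicate 3. Replicate 2 listed no region that overlapped peak 10, which makes it the only one of the 22 without support in all 3 lists.

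At the paired starts of ush-RA and ush-RC, 2 weaker peaks flanked or covered the sites. Peak 19 (523497 to 523932) had its summit 249 bp downstream of ush-RA and 21 bp upstream of ush-RC, in a 5′ untranslated exon of ush-RA. It ranked 7621, and 10189, 4982 and 9833 in the replicates, so 2 of 3 replicates put it below their strongest 9569. Peak 18 (522902 to 523045) lay 470 bp upstream of ush-RA and 740 bp upstream of ush-RC. It ranked 3494, and 2289, 6545 and 3517 in the replicates. Replicates disagreed on which was stronger: peak 18 ranked above peak 19 in replicates 1 and 3, and below it in replicate 2.

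The remaining peaks lay in ush introns away from any ush or cbt start. The strongest of them was peak 22 (530304 to 530592), 6712 bp downstream of ush-RC, at rank 1264 and replicate ranks 1189, 1728 and 1166. Peak 14, 11218 bp upstream of ush-RA, ranked 1714, with 1785, 2064 and 1560 in the replicates. Peak 15, 7260 bp upstream of ush-RA, ranked 1825, with 1466, 2564 and 1691. Peak 22 ranked above peaks 14 and 15 in all 3 replicates, while peak 15 ranked above peak 14 in replicate 1 only. Peak 17, 2633 bp upstream of ush-RA, followed at 2352 (2936, 2150 and 2316 in the replicates) and peak 13, 12707 bp upstream, at 3319 (5898, 2565 and 2981). Peaks 16, 20 and 21 were weaker. Peak 16, 5331 bp upstream of ush-RA, ranked 5093 (4899, 7716 and 4729 in the replicates). Peak 20, 916 bp downstream of ush-RC, ranked 6614 (5826, 6810 and 7437), and peak 21, 3408 bp downstream of ush-RC, ranked 7223 (10712, 7502 and 6660).

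Between peak 6 and the ush-RB start the strongest away from that start was peak 7, 4956 bp upstream of ush-RB, at rank 1919 and replicate ranks 2724, 1609 and 2092. Peak 8 had its summit 199 bp from that of peak 7 and ranked 9563, the lowest of the 22. It overlapped 2 regions of replicate 2, at ranks 1609 and 15761, both of which also overlapped peak 7, and the weaker of them had the nearer summit. In replicates 1 and 3 peak 8 ranked 5979 and 8167. Peak 9, 2370 bp upstream of ush-RB, ranked 3134, with 4418, 3756 and 2278 in the replicates, and peak 12, 2590 bp downstream of ush-RB, ranked 6447, with 5568, 6980 and 8386.

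**Figure D3:**
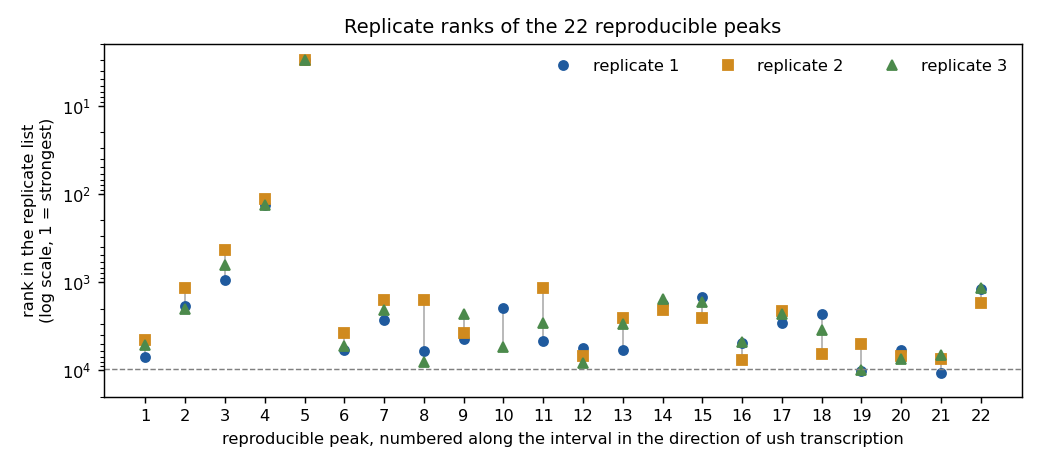
Rank of each of the 22 reproducible peaks in the 3 replicate lists (log scale, 1 is the strongest; grey lines join the replicates, and the dashed line is rank 9569). Replicate 2 has no point at peak 10. The symbols of peaks 4 and 5 nearly coincide, while peaks 8, 11 and 18 spread the most among those found in all 3.

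The 2 peaks upstream of ush belonged by position to other genes. Peak 2 (472311 to 472600) was 251 bp upstream of the start of CG4297-RC and 562 bp upstream of MED15, which encodes a Mediator subunit, and 3769 bp upstream of ush. It ranked 1564, and 1893, 1183 and 2017 in the replicates. Peak 1 lay 202 bp downstream of the CG4297-RD start and 4867 bp upstream of ush, at rank 5491 and replicate ranks 6994, 4550 and 5148. The summit of peak 1 was also the nearest inside the 5 kb limit, while the nearest reproducible summit outside it, at 468928, ranked 4255. On the 3′ side the nearest outside was at 552581, at rank 7280. The reproducible list ended just below peak 8, and the strongest pooled candidate at the locus that it left out, with its summit at 526379, ranked 9669.

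Several annotated parts of the locus held no reproducible peak. The 17334 bp between peaks 12 and 13 held 10 pooled candidates at ranks 10821 to 28343, although a region of replicate 2 there, at 507395, ranked 9050. The start of lncRNA:CR46259, at 502236, lies there. The nearest pooled candidate to it, 375 bp downstream, ranked 15978, and in the replicates the nearest ranked 11591, 19250 and 21896. After peak 22 the last 10112 bp of ush carry 97.0% of its 3679 coding bases, and the 6 pooled candidates there ranked 10187 to 27885. The strongest of them, at 531649, had a higher counterpart in replicate 2 and a lower one in replicate 3. Replicate 2 ranked a region at 531657 at 6754, above its regions for peaks 12, 16, 20 and 21. Replicate 3 ranked one at 531625 at 10993. Replicate 1 ranked a region at 531924 at 9029, but its summit was nearer to another pooled candidate, at 531880 (rank 15548). No reproducible summit fell in a coding exon of ush or cbt. Downstream of ush, the nearest reproducible summit to each start lay outside the interval, at 552581. It was 10001 bp from that of lwr, which encodes the SUMO-conjugating enzyme, 7928 bp from that of Spp, a signal peptide peptidase gene, and 7452 bp from that of nAChRbeta3, an acetylcholine receptor subunit gene. A weak region of replicate 2, at rank 22562, had its summit 1 bp from the Spp start.

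By overlap with any region, a counterpart in every replicate was about as common at the locus as among all reproducible peaks. Of the 54 pooled candidates at the locus, 22 (40.7%) were reproducible, against 31.9% of all pooled candidates. The locus was chosen from these lists, so nothing is read from that difference. A region overlapped the peak in all 3 replicate lists for 21 of the 22 (95.5%, against 95.4% of all reproducible peaks). Among the strongest 9569 of each list, 19 of 22 (86.4%) were matched in all 3, against 72.8% overall. With the nearest summit in place of the strongest overlapping region, 18 were. Reproducible summits within 500 bp of a start of ush or cbt numbered 4 of 22 (18.2%), and 6 of 22 (27.3%) counted every annotated gene, against 35.6% of all reproducible summits.

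Regions at the locus that overlapped no reproducible peak numbered 20 of 44 in replicate 1, 29 of 52 in replicate 2 and 26 of 49 in replicate 3. The strongest such region ranked 7553 in replicate 1 (summit 526444), 6754 in replicate 2 (summit 531657) and 9720 in replicate 3 (summit 513166). The same share over each whole replicate list was not computed, so nothing is read from these counts. Across the reproducible peaks Spearman's rho of the ranks was 0.667 for replicates 1 and 2 (21 peaks), 0.863 for 1 and 3 (22 peaks) and 0.748 for 2 and 3 (21 peaks). This describes peaks that share libraries and 1 control. Replicate summits lay a median of 9.50 to 14.5 bp from those of the reproducible list, and 233 bp at most. The 233 bp was at peak 1 in replicate 1. There the strongest overlapping region ranked 6994, and another overlapping region, with a nearer summit, ranked 6997.

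ush held more reproducible peaks than most genes of its length. Its span of 64341 bp held 20, and 12 of 13945 protein-coding genes held more. Among the 174 genes with spans of 50 to 80 kb the number ranged from 0 to 31 with a median of 3, and only sbb, mam and shn held more than ush. shn encodes a zinc finger protein of Dpp signalling, mam a coactivator of Notch signalling and sbb a transcriptional corepressor. These names were chosen after their values were seen. cbt, with a span of 3243 bp, held 1, and the 20 of ush include the peaks at cbt.

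**Figure D4:**
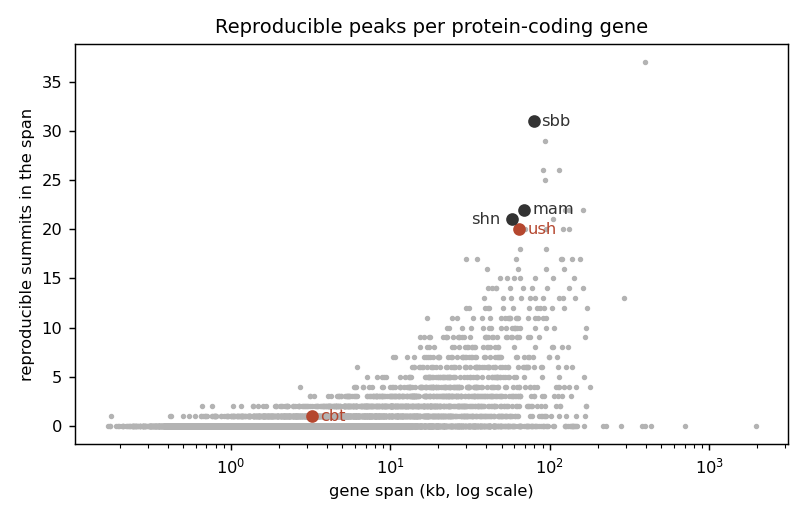
Number of reproducible summits within the span of each of 13945 protein-coding genes (grey points) against the span in kb (log scale). ush, with 20, is among the highest of genes of similar span. cbt, with 1, lies low in the plot, although only 1143 of the 13945 genes held more.

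The shares of summit windows that hold each of 14 motifs are given as a description. Each motif was searched on both strands in 201 bp around the 22 summits and around all 9569. GATA factor letters (GATAA) were in 9 of 22 windows (40.9%, against 36.6% of all) and GAGA letters (GAGAG) in 7 (31.8% against 26.4%). PHO letters (GCCAT) were in 7 (31.8% against 25.7%), the TATA box (TATAAA) in 5 (22.7% against 32.1%) and the BEAF-32 core (CGATA) in 3 (13.6% against 23.4%). The CACCC box (CACCC) was in 2 (9.09% against 15.8%). The DRE (TATCGATA), which contains the BEAF-32 core, was in none (1.85% of all). Likewise none held AP-1 letters (TGANTCA, 4.82% of all), Zelda letters (CAGGTAG, 0.846%) or M1BP motif 1 (GGTCACACT, 1.11%). In peak 5 the matches to GATAA and CGATA overlap, as the capitals near its 3′ end show.

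Among motifs held by under 5% of all reproducible windows, 4 occurred at the locus, in 2 or 3 windows each, and 4 (the DRE, AP-1, Zelda and M1BP letters above) did not. The letters CAAGGTCA, an element bound by nuclear receptors such as FTZ-F1, a regulator of the prepupal response to ecdysone, were in peaks 9 and 15. They were in 19 of all 9569 windows (0.199%), which leaves 17 outside the locus. These letters contain the shorter nuclear receptor core (AGGTCA), which was in 3 of 22 windows (13.6% against 3.73%). The E-box (CACGTG) was in peaks 3 and 4, the pair that flanks the cbt start (9.09% against 1.90%). It lay 63 bp and 92 bp from their summits. The KLF box (CACGCCC) was in peaks 11 and 15 (9.09% against 1.19%). None of the CAAGGTCA, E-box and KLF box matches lay wholly within 50 bp of a summit. The summit windows had a median GC content of 38.6% (26.9% to 56.7%), against 36.3% over all reproducible peaks. Those of peaks 3, 11, 19 and 20 were above 50%.

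Other genes of the pathways in which ush and cbt act were compared by whether they had a reproducible summit no more than 500 bp from a start, as did 23.1% of protein-coding genes. Of 14 ush partners and GATA factors 3 (21.4%) had one. These were tin, a heart homeobox gene (rank 432), MTA1-like (4852), and pnr, which encodes Pannier (7407), while srp, CtBP, lz and the others had none. Of 13 genes of Dpp and JNK signalling in dorsal closure 9 (69.2%) had one, led by shn (532), the JNK phosphatase gene puc (563), hep (6095), dpp (6152), msn (6154) and tkv (6289). Of 6 sugar response genes 4 had one: bigmax, which encodes the partner of Mondo (1959), the lipase gene bmm (3276), sug (4845) and Pepck1 (8891). Clock genes had 4 of 7, led by vri (2910), and cell cycle genes 4 of 5, led by Dp (452). The list drawn up for the Sp and KLF family had 5 of 7. Its strongest, bowl (287), is a zinc finger gene outside that family, and dar1 (6188) came next. The 52 listed genes had a median of 2 start sites and a span of 10657 bp, against 1 and 2166 bp for all protein-coding genes. The part of those differences in the shares was not tested.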

How the data were processed

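Per the deposited provenance texts, the authors derived a candidate list for every replicate from its own alignments with 1 shared control file. A pooled list joins the 3 replicates, and the reproducible list was thresholded by irreproducible discovery rate. Sonicated fragments were 200 to 800 bp, per the labels. The aligner, caller and cutoff were not given in the sources used here. The deposited signal (scale not given) was used only for ranking, because 8429 reproducible peaks share the highest deposited −log10 q-value. The deposited summit offset placed each region. Lists on dm3 were not used here. Read depth is unknown from peak lists.

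Start sites and exons came from Ensembl release 115 (BDGP6.54), and its 5 start positions of ush and cbt are the same in RefSeq. Main arms were 2L, 2R, 3L, 3R, 4 and X. A replicate region matched a peak when they shared 1 bp or more, and the strongest was taken. All listed genes matched an annotated gene, 1 of 52 by an older name. Motif and overlap code was tested on simulated data. The members, gene lists and motifs were chosen with earlier results of these data known. Genes named are ush, cbt, every gene with a start in the interval, and up to 6 members with a peak per list, strongest first. Outside this rule, srp, CtBP, lz, sbb, mam and (for its peak count) shn were named after their values were seen. Alternatives covered the interval, placement, overlap, windows, threshold and replicates left out. Python 3.11.15, numpy 2.4.6, pandas 2.3.3, scipy 1.17.1 and matplotlib 3.10.9 were used.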

Additional observations from a re-analysis of the deposited data

How the results depend on the processing

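The count of reproducible peaks at the locus was 20 with 2 kb added to the gene spans, 23 with 10 kb and 22 by region midpoints, but 14 in the stronger 50% of the list. With any 1 replicate left out, 21 to 22 of the same 22 peaks overlapped a region in both remaining lists. The reproducible list itself was not derived again. The count at a start of ush or cbt was 2 within 250 bp and 7 within 1000 bp. Peaks matched in all 3 replicates numbered 16 when 50% of both lengths had to be shared. The shares over all reproducible peaks are not given for these windows and this overlap, so nothing about the locus is read from them. Ranked by −log10 q-value, with ties at their mean, the mean replicate rank of the strongest peak was 4005 instead of 3, because 6617 to 8809 regions of each replicate list share its highest value. It was 3 with each replicate left out and, in a setting added after the data were seen, with the region of nearest summit. Pairs of a peak and a motif numbered 42, and 17 with windows of 50 bp to each side and 63 with 150 bp. The share of listed genes with a peak was 42.3% within 250 bp and 67.3% within 1000 bp, against 55.8% within 500 bp. For all protein-coding genes it was 18.5% within 250 bp, 26.9% within 1000 bp and 23.1% within 500 bp. No paired analysis was possible because there is 1 group. Read depth is unknown, so the depth behind a rank cannot be given.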

Other observations

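Peaks 3, 4 and 5 put 3 summits of rank 633 or better within 1925 bp. With those limits, which the locus itself set after its values were seen, no other place on the main arms held 3 such summits. With looser limits, rank 1000 and 2000 bp, there were 3 others. Among the 6 reproducible peaks within 500 bp of any start, replicate 2 gave the best rank of the 3 replicates in 5 and the worst in 1. In the 5′ stretch it gave the best rank in 6 of 9 and the worst in 0, and in the 3′ stretch the best in 3 of 10 and the worst in 5. The 9 leave out peak 10, which replicate 2 lacks, and the 6 include peak 8. In replicate 2 peak 8 took rank 1609 from a region that also overlapped peak 7. By nearest summit peak 8 ranked 15761 in replicate 2, the worst of the 3, against 5979 and 8167 in replicates 1 and 3. Over all reproducible peaks matched in every replicate, replicate 2 gave the best rank in 36.3% of those within 500 bp of a start and in 34.0% of the others, and the worst in 38.0% and 36.8%.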
